A study of Mus musculus with 12 samples.

Results

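The 8 genes described here encode membrane proteins by which leukocytes attach to stromal and vascular cells and pass between them. They are Icam1, Icam2, Vcam1, Alcam, Mcam, F11r, Jam2 and Jam3. They were chosen by name, as the rows of the deposited expression table whose Ensembl identifier maps to these symbols, and make up 8 of the table's 55413 genes. All 8 passed the filter on low values, a mean of at least 3 over the libraries, but Icam2 did so only through the non-primed group: over the other 9 libraries its mean was 2.89.

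The study measured RNA in 12 libraries of synovial fibroblast cultures from BALB/c mice, with 3 libraries in each of 4 groups. Each culture was grown out of collagenase-digested, skinned paws, pooled from 2 to 3 paws and kept for 5 passages. Monosodium urate (MSU) crystals, the crystals of gout, were the stimulus in every group. In the in vitro treated group, cells of primed paws were exposed to 1 µM I-BET151 for 24 h before harvest. In the in vivo treated group, mice received I-BET151 at 20 mg/kg per day by intraperitoneal injection from 1 day before their first crystals, and primed paws were taken. The primed vehicle group came from mice given injections without the drug, and its left paws received crystals on day 0 and on day 9. The non-primed vehicle group came from right paws given crystals on day 9 only, so paw side and priming coincide. The harvest day recorded for all 12 libraries was day 18. The labels do not say which libraries came from separate animals, nor whether the mice behind the in vitro treated cells received vehicle injections. The p-values below thus speak of variation among libraries that may be technical.

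Leukocytes leave the blood in steps. Selectins slow them, integrins on the leukocyte then grip immunoglobulin-family ligands such as ICAM1 and VCAM1, and junctional molecules, the JAM proteins (encoded by F11r, Jam2 and Jam3) among them, take part in the passage between cells. Synovial fibroblasts carry several of the same ligands, and ICAM1 and VCAM1 on these cells are known to be induced by tumour necrosis factor and interleukin-1. I-BET151 blocks the bromodomains of the BET proteins, which bind acetylated histones and which Brd2, among other genes, encodes.

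The libraries differed in cell content, and this bears on every comparison below. Over 13 melanocyte markers the mean regularized log value, a log2 scale called rlog here, was 13.53 to 14.92 in 5 libraries and 5.54 to 6.38 in 7. The melanocyte-rich libraries were in vivo treated 2 and 3 and the 3 non-primed vehicle libraries, and the fibroblast-rich ones were in vitro treated 1 to 3, in vivo treated 1 and primed vehicle 1 to 3. Over 10 fibroblast markers the mean was 5.91 to 10.48 in the melanocyte-rich libraries, against 13.98 to 14.96 in the fibroblast-rich ones, so the labelled cell type does not describe all 12. Every non-primed library was melanocyte-rich and every primed vehicle library was fibroblast-rich, so cell content and priming cannot be told apart. In bulk RNA, fewer cells of a type and less RNA per cell cannot be told apart either. Non-primed library 3 differed by a root mean square of 0.78 and 0.86 log2 units from in vivo treated libraries 2 and 3 over the tested genes, against 1.21 and 1.32 from the other non-primed libraries. Over the 8 members these distances were 1.22 and 1.20 against 2.34 and 2.46. Whether a library or culture carries another group's label was not tested, and all group means and differences below follow the labels as they stand.

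Markers of endothelial cells, the classical site of several of these molecules, were uneven. The mean of 10 endothelial markers was 2.51 to 3.11 in melanocyte-rich libraries and 3.97 to 4.77 in fibroblast-rich ones, and Tie1, Emcn and Cldn5 stayed below 3 in every library. Egfl7 at 8.12 to 9.76 and Vwf at 5.80 to 9.27 were well detected over the 12 libraries. The rest were weaker, with Tek at 2.42 to 7.73, Erg at 1.68 to 6.42 and Kdr at 1.91 to 6.22. Pecam1 stood at 3.90 to 5.45 and Cdh5 at 0.27 to 4.65. The mean of 12 macrophage and leukocyte markers was 2.58 to 4.76 in melanocyte-rich libraries and 5.48 to 7.70 in fibroblast-rich ones, with Cd3e and Ly6g among those below 3 in every library. Pericyte and smooth muscle markers, 7 in number, had means of 4.16 to 5.81 in melanocyte-rich and 6.33 to 8.20 in fibroblast-rich libraries, and the 5 epithelial markers means of 0.39 to 1.08 in melanocyte-rich and 0.91 to 1.52 in fibroblast-rich ones. The 6 Schwann cell markers had means of 8.34 to 10.38 in melanocyte-rich and 8.54 to 9.66 in fibroblast-rich libraries. No marker in these lists was at 0. The part of these cells in the results below was not tested beyond the values given.

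The sequence before the start of Icam1, the member that varied most, is shown for its motifs. RefSeq promoters were at hand for 4 of the 8 members (Icam1, Mcam, Alcam and F11r), and Vcam1, Icam2, Jam2 and Jam3 are named only. Each window is the 250 bases before the RefSeq start on GRCm38.p6, which need not be the GENCODE start given with the gene below. The Icam1 window, chr9:21015690-21015939 on the plus strand, ends 45 bases before the GENCODE start, while 250 bases of the Alcam window, 189 of the Mcam window and 26 of the F11r window lie inside the GENCODE gene, so these are not printed. The line runs 5′ to 3′, the genome is that of another strain than BALB/c, and capitals mark matches to any of 6 motifs searched on both strands.
Icam1 promoter: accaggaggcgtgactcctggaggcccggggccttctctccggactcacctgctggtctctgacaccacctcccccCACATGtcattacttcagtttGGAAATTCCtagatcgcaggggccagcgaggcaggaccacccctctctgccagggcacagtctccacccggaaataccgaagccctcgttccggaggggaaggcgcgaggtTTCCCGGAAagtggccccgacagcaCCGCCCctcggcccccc
The Icam1 window held GGAANTTCC (the NF-kB type) 153 bases before the start, TTCNNNGAA (the STAT type) 42 bases before it, CATGTG (an E-box) read as CACATG on the other strand at 174 bases, and a GC box, GGGCGG. The Mcam window held GGGCGG 5 times and none of the other motifs. The F11r window held TGANTCA (the AP-1 type) 109 bases before the start and 1 GC box, the Alcam window held 2 GC boxes, and TATAAA was in none of the 4. No matches overlapped. Among 32851 promoter windows of this length, 0.813% held GGAANTTCC, 7.02% TTCNNNGAA, 6.75% TGANTCA, 32.7% GGGCGG, 12.3% CATGTG and 12.4% TATAAA. These matches describe the letters only.

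Among the immunoglobulin-family ligands, Icam1 (chr9:21015985-21028817, plus strand, GRCm38) is bound by the leukocyte integrins that pair Itgal or Itgam with Itgb2. Its rlog level was 11.97, 11.05 and 11.09 in in vitro treated libraries, 10.44, 6.06 and 5.87 in in vivo treated libraries, 11.86, 12.28 and 11.65 in primed vehicle libraries and 5.97, 7.04 and 3.20 in non-primed libraries. The 7 fibroblast-rich libraries were all above the 5 melanocyte-rich ones, and in vivo treated library 1 was the lowest of the 7. An antisense gene, Gm47079, shares 511 exon bases with Icam1, and its own level was 1.56 to 3.35.

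Vcam1 (chr3:116109949-116129688, minus strand), the ligand of integrins containing Itga4, moved most like Icam1 of all members. Its level was 12.81, 12.83 and 12.09 in in vitro treated libraries, 11.08, 7.51 and 7.72 in in vivo treated libraries, 13.33, 13.80 and 13.65 in primed vehicle libraries and 8.26, 8.66 and 5.87 in non-primed libraries. The in vitro treated and the primed vehicle libraries did not overlap, and in vivo treated library 1 lay below every library of both. Gm43109 overlaps 61 exon bases of Vcam1 on the other strand.

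Icam2 (chr11:106377656-106388075, minus strand), a ligand of the same Itgal integrin that is known for its steady presence on endothelium, was the weakest of the 8 in each primed group, while in non-primed libraries the mean of Icam1 was lower. Its level was 2.55, 2.22 and 2.36 in in vitro treated libraries, 2.97, 4.05 and 3.99 in in vivo treated libraries, 3.00, 2.69 and 2.18 in primed vehicle libraries and 6.91, 7.09 and 3.21 in non-primed libraries. Non-primed libraries 1 and 2 stood far above the other 10. The rlog shrinks differences of weakly expressed genes, so the differences of Icam2 are understated.

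Alcam (chr16:52248996-52454074, minus strand), the ligand of the T cell receptor Cd6 and a molecule that also binds itself, was high in every library. Its level was 12.70, 12.64 and 12.60 in in vitro treated libraries, 12.76, 12.48 and 12.64 in in vivo treated libraries, 12.25, 11.13 and 11.54 in primed vehicle libraries and 10.33, 10.56 and 12.54 in non-primed libraries. All 6 treated libraries lay above all 3 primed vehicle libraries, whatever their melanocyte content, and non-primed library 3 lay among the treated ones. Jam3 (chr9:27097384-27155421, minus strand), a junctional molecule that binds Jam2 and the Itgam integrin, had a like order of libraries at a smaller scale. It stood at 12.13, 12.09 and 11.90 in in vitro treated libraries, 12.25, 11.86 and 11.88 in in vivo treated libraries, 11.70, 11.18 and 11.15 in primed vehicle libraries and 10.98, 10.90 and 11.87 in non-primed libraries. The antisense gene Gm48796 shares 1159 exon bases with Jam3 and had levels of 4.65 to 6.12.

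Mcam (chr9:44134469-44142727, plus strand), first described on melanoma cells and also present on vessel walls, ran opposite to Icam1. It stood at 12.24, 12.35 and 13.40 in in vitro treated libraries, 13.18, 15.79 and 15.73 in in vivo treated libraries, 13.45, 10.78 and 12.18 in primed vehicle libraries and 13.51, 13.93 and 15.85 in non-primed libraries. The 5 melanocyte-rich libraries were all above the 7 fibroblast-rich ones, though non-primed library 1 at 13.51 was only just above primed vehicle library 1 at 13.45. Gm10687 overlaps 17 exon bases of Mcam on the other strand, and its level of 4.86 to 8.68 was also highest in in vivo treated libraries 2 and 3 and non-primed library 3. Without the strand setting of the counting, reads of such partners cannot be told apart.

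Of the other junctional molecules, Jam2 (chr16:84774123-84825928, plus strand) is bound by Jam3 and by the integrin of Itga4 and Itgb1. Its level was 10.37, 10.28 and 11.48 in in vitro treated libraries, 11.11, 9.45 and 9.42 in in vivo treated libraries, 12.24, 12.11 and 12.44 in primed vehicle libraries and 9.06, 8.64 and 8.83 in non-primed libraries. The primed vehicle libraries were above all others and the non-primed ones below all others. F11r (chr1:171437535-171464603, plus strand), a tight junction protein that the Itgal integrin can bind, stood at 8.10, 8.07 and 8.29 in in vitro treated libraries, 9.37, 8.09 and 8.07 in in vivo treated libraries, 8.98, 8.36 and 9.02 in primed vehicle libraries and 10.56, 9.73 and 8.18 in non-primed libraries. Its order did not follow the split into melanocyte-rich and fibroblast-rich libraries.

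**Figure D1:**
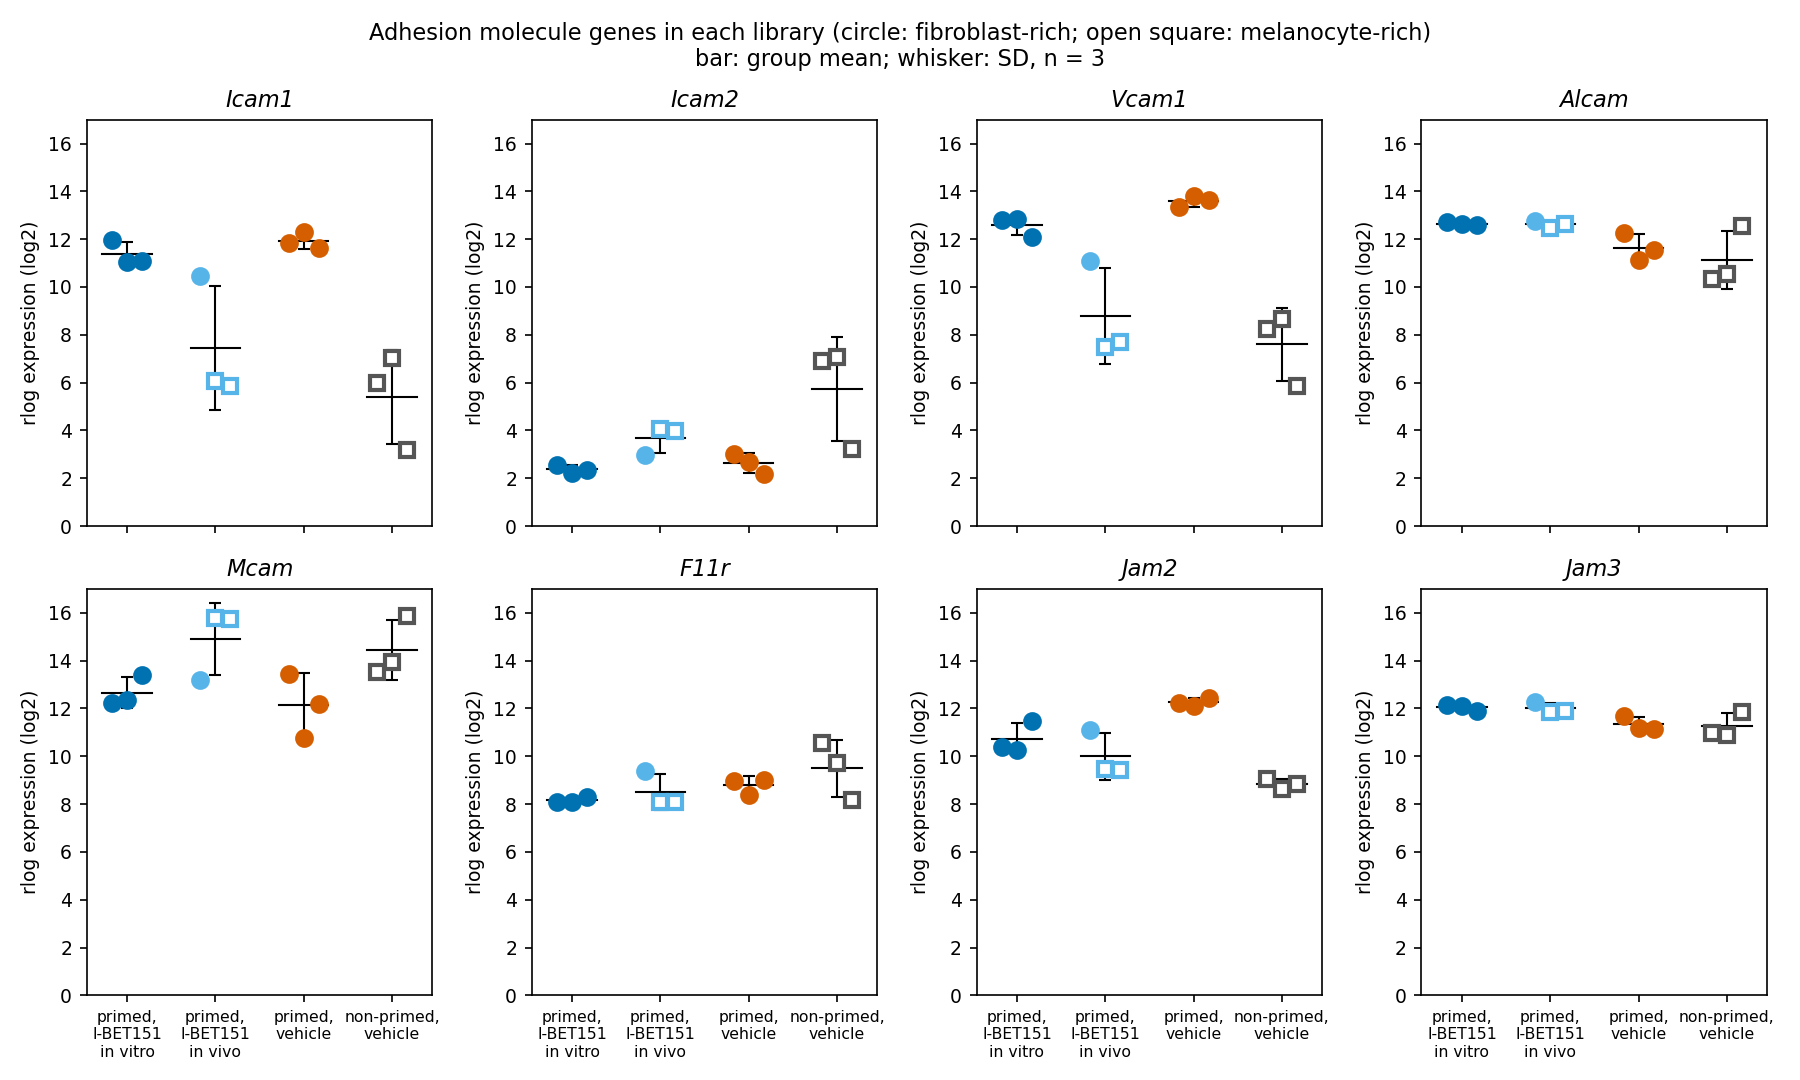
Level of each of the 8 genes (rlog, log2) in each of the 12 libraries, by group, with group means as bars and SDs as whiskers (n = 3). Circles are fibroblast-rich and open squares melanocyte-rich libraries. Icam1 and Vcam1 lie between 10.44 and 13.80 in every fibroblast-rich library and between 3.20 and 8.66 in every melanocyte-rich one, while Mcam is highest, at 15.73 to 15.85, in 3 melanocyte-rich libraries.

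The order of the groups differed between members. For Icam1 the group means were 11.37 ± 0.52 in vitro treated, 7.46 ± 2.59 in vivo treated, 11.93 ± 0.32 in primed vehicle and 5.40 ± 1.98 in non-primed libraries (SD, n = 3 each), and of the neighbours in this order only the in vitro and the in vivo treated groups did not overlap. For Vcam1 they were 12.58 ± 0.42 in vitro treated, 8.77 ± 2.00 in vivo treated, 13.59 ± 0.24 in primed vehicle and 7.60 ± 1.51 in non-primed libraries, and the in vivo treated and non-primed libraries were the neighbours that overlapped. Mcam had its highest means elsewhere, with 12.66 ± 0.64 in vitro treated, 14.90 ± 1.49 in vivo treated, 12.14 ± 1.34 in primed vehicle and 14.43 ± 1.25 in non-primed libraries. Here only the gap between non-primed and in vitro treated libraries was free of overlap. For Jam2 the means were 10.71 ± 0.67 in vitro treated, 9.99 ± 0.97 in vivo treated, 12.26 ± 0.17 in primed vehicle and 8.84 ± 0.21 in non-primed libraries, and the in vitro and in vivo treated groups overlapped. Alcam and Jam3 were separated between in vivo treated and primed vehicle libraries and between no other neighbours. Alcam averaged 12.65 ± 0.05 in vitro treated, 12.63 ± 0.14 in vivo treated, 11.64 ± 0.57 in primed vehicle and 11.14 ± 1.21 in non-primed libraries, and Jam3 followed it with 12.04 ± 0.12 in vitro treated, 12.00 ± 0.22 in vivo treated, 11.34 ± 0.31 in primed vehicle and 11.25 ± 0.54 in non-primed libraries. No neighbours in the order were separate for the remaining members. Icam2 averaged 2.38 ± 0.17 in vitro treated, 3.67 ± 0.61 in vivo treated, 2.62 ± 0.42 in primed vehicle and 5.73 ± 2.19 in non-primed libraries. F11r averaged 8.15 ± 0.12 in vitro treated, 8.51 ± 0.75 in vivo treated, 8.79 ± 0.37 in primed vehicle and 9.49 ± 1.21 in non-primed libraries.

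Compared per kilobase of annotated exon (the rlog mean less the log2 exon length), the most abundant member was not the same in every group. In primed vehicle libraries Vcam1 at 10.44 and Mcam at 10.39 led, ahead of Icam1 at 9.81, Jam2 and Jam3 at 9.67 each, Alcam at 8.81, F11r at 7.37 and Icam2 at 1.69. In non-primed libraries Mcam at 12.69 was far ahead of Jam3 at 9.57, Alcam at 8.31, F11r at 8.08, Jam2 at 6.25, Icam2 at 4.81, Vcam1 at 4.45 and Icam1 at 3.28. Among 16459 tested genes ranked on this scale, Mcam was 239th in in vivo treated libraries and 359th in non-primed ones, but 1934th in vitro treated and 2813th in primed vehicle libraries. Icam1 ranked 4037th in primed vehicle and 13717th in non-primed libraries. Over all 12 libraries Icam1 spanned 9.09 log2 units, more than 98.4% of tested genes, Vcam1 7.92, Mcam 5.07, Icam2 4.91, Jam2 3.80, F11r 2.50, Alcam 2.43 and Jam3 1.34, where the median tested gene spanned 1.60.

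Primed vehicle against non-primed vehicle libraries asks what a previous crystal exposure left in the cultured cells. Icam1, Vcam1 and Jam2 rose and Icam2 fell, while Alcam, Mcam, F11r and Jam3 did not pass the test. Tests here are limma on the rlog values with 1 mean per group and all 12 libraries in the fit, adjusted with the Benjamini-Hochberg method over 16459 genes, and a call is an adjusted p under 0.05. Icam1 was higher in primed cells by 6.53 ± 1.20 log2 units (SE, adjusted p = 0.00256), Vcam1 by 5.99 ± 0.92 (adjusted p = 0.00152) and Jam2 by 3.42 ± 0.45 (adjusted p = 0.000891). Icam2 differed by -3.11 ± 0.86 (adjusted p = 0.0128). Icam2 passed the filter only through the non-primed group, where it is high, so it had to differ to be tested. With no filter its adjusted p was 0.0231. That is 4 of 8 members called, 3 higher and 1 lower, beside 51.8% of all tested genes, 28.9% higher and 22.9% lower, so the share is near that of any genes.

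Groups did not overlap for 5 members in this comparison (Icam1, Icam2, Vcam1, Mcam and Jam2), as for 61.7% of tested genes. Mcam was lower in primed vehicle libraries, by a difference of -2.29 ± 0.88 that missed the call at an adjusted p of 0.0504. It was called when non-primed library 1, primed vehicle library 1 or in vivo treated library 1 was left out (adjusted p = 0.0473, 0.0297 and 0.0206). Differences were 0.50 ± 0.49 for Alcam (adjusted p = 0.418), -0.71 ± 0.55 for F11r (adjusted p = 0.302) and 0.09 ± 0.25 for Jam3 (adjusted p = 0.774). The median difference of the members was 0.29, against 0.05 over all tested genes. Non-primed library 3, the one nearest to in vivo treated libraries 2 and 3, mattered here. Without it 6 members were called (48.9% of all genes), with Alcam added at 1.19 ± 0.27 (adjusted p = 0.00819) and F11r at -1.36 ± 0.43 (adjusted p = 0.0274). In these same libraries all 10 fibroblast markers rose and all 13 melanocyte markers fell in primed vehicle against non-primed libraries, and all 8 tested macrophage and leukocyte markers rose.

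In vivo treated against primed vehicle libraries asks what the drug given to the mice changed. Icam1, Vcam1 and Jam2, the members that were higher in primed than in non-primed cells, fell, and Mcam rose. The shared primed vehicle libraries enter both comparisons. Vcam1 differed by -4.82 ± 0.92 log2 units (adjusted p = 0.00561), Icam1 by -4.47 ± 1.20 (adjusted p = 0.018), Jam2 by -2.27 ± 0.45 (adjusted p = 0.00607) and Mcam by 2.76 ± 0.88 (adjusted p = 0.0324). Called genes made up 39.7% of all tested, 17.9% higher and 21.8% lower, against 4 of 8 members. Jam3 at 0.65 ± 0.25 (adjusted p = 0.0621), Alcam at 0.99 ± 0.49 (adjusted p = 0.127), Icam2 at 1.05 ± 0.86 (adjusted p = 0.335) and F11r at -0.28 ± 0.55 (adjusted p = 0.70) did not pass. Groups did not overlap for Icam1, Vcam1, Alcam, Jam2 and Jam3, as for 49.1% of tested genes. The median difference was 0.19 over the members and -0.05 over all tested genes.

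These calls rest on a group of mixed cell content. Fitted to the 6 libraries compared, only Vcam1 (adjusted p = 0.024) and Jam2 (adjusted p = 0.027) were called, where 24% of all genes were, and Icam1 had an adjusted p of 0.0508 and Mcam of 0.0817. Without primed vehicle library 2 the same 2 genes were called of the 8 (23.2% of all genes), as they were without in vivo treated library 2 (15.1%) and without in vivo treated library 3 (14.8%). Without primed vehicle library 3 Mcam lost its call (adjusted p = 0.0785), as it did with no filter on low values (adjusted p = 0.0514), and without primed vehicle library 1 Jam3 gained one (adjusted p = 0.0488). Without non-primed library 3, which changes only the shared spread, 7 members were called (46.1% of all genes), all but F11r. Of the cell type markers, 5 of 13 for melanocytes rose, and 5 of 10 for fibroblasts and 7 of 8 tested for macrophages and leukocytes fell in in vivo treated against primed vehicle libraries. In the fit of the 6 libraries compared, none of the melanocyte, 3 of the fibroblast and 7 of the macrophage and leukocyte markers were called.

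In vivo treated library 1 is the in vivo treated library with fibroblast content, and gives the comparison free of the melanocyte-rich ones. Its fibroblast marker mean was 14.12, against 14.43 to 14.96 in primed vehicle libraries. Its macrophage and leukocyte marker mean was 5.48, against 7.13 to 7.70, and the part of this in the differences was not tested. In a fit of the 7 fibroblast-rich libraries, this lone library was assumed to vary like the other groups, so the errors and p-values hold no measure of the variation under in vivo treatment. The difference from primed vehicle libraries was -2.51 ± 0.31 log2 units for Vcam1 (SE, adjusted p = 0.00731), -1.49 ± 0.39 for Icam1 (adjusted p = 0.0385) and 0.90 ± 0.23 for Jam3 (adjusted p = 0.034). Under that assumption 20.4% of all genes had an adjusted p under 0.05. The difference of Mcam was 1.05 ± 0.92 (adjusted p = 0.448), which compares with 2.76 in the fit of all 12 libraries, and that of F11r was 0.59 ± 0.30 (adjusted p = 0.206), with the sign turned. Jam2 at -1.15 ± 0.44 (adjusted p = 0.108) and Alcam at 1.12 ± 0.37 (adjusted p = 0.0717) had the same signs as in the fit of all 12.

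**Figure D2:**
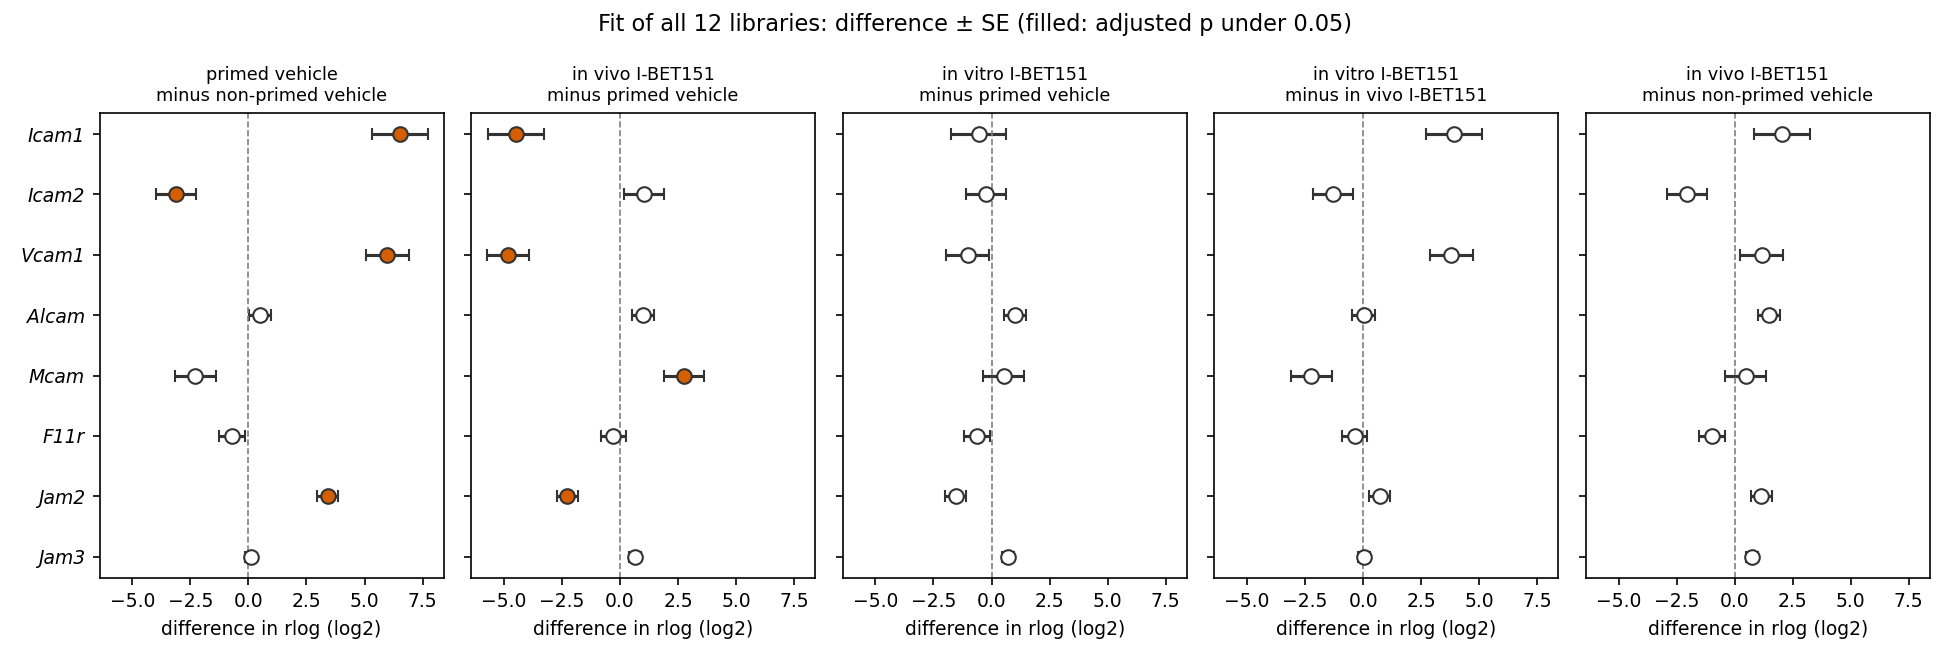
Difference in rlog (log2) ± SE for the 8 genes in each of 5 comparisons, from the fit of all 12 libraries, with calls (adjusted p under 0.05) filled. Icam1 and Vcam1 lie at 6.53 and 5.99 in primed against non-primed vehicle libraries and at -4.47 and -4.82 in in vivo treated against primed vehicle libraries, and no gene is filled in the other 3 panels.

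In vitro treated against primed vehicle libraries asks what 24 h of the drug did to cultured cells. All 6 libraries are fibroblast-rich. In the fit of all 12 libraries limma called none of the 8 members, where 4.51% of all genes were called. At an unadjusted p under 0.05, Jam2 and Jam3 passed, as did 3921 genes in all. Differences in that fit were -1.55 ± 0.45 for Jam2 (adjusted p = 0.0721), -1.02 ± 0.92 for Vcam1 (adjusted p = 0.558), 1.01 ± 0.49 for Alcam (adjusted p = 0.247) and 0.70 ± 0.25 for Jam3 (adjusted p = 0.131). The groups nevertheless did not overlap for 5 members (Vcam1, Alcam, F11r, Jam2 and Jam3), as for 48.4% of tested genes.

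The shared spread of that fit includes the mixed in vivo treated and non-primed groups. Fitted to the 6 libraries alone, the same differences had smaller errors and 4 members were called, Vcam1 and Jam2 lower and Alcam and Jam3 higher in in vitro treated cells. Jam2 had an SE of 0.31 (adjusted p = 0.0119), Vcam1 of 0.22 (adjusted p = 0.016), Jam3 of 0.16 (adjusted p = 0.0193) and Alcam of 0.26 (adjusted p = 0.0274). In this fit 30.3% of all genes were called, 13.4% higher and 16.9% lower, so 4 of 8 is above that share but rests on few genes. Icam1 at -0.56 ± 0.28 (adjusted p = 0.166) and F11r (adjusted p = 0.066) were not called. The median difference of the members was -0.41, against -0.02 over all tested genes. In the same fit 2 of 13 melanocyte, 1 of 10 fibroblast, 2 of 8 tested macrophage and leukocyte and 1 of 6 tested pericyte and smooth muscle markers fell and none of these rose. The melanocyte markers were Mitf and Slc24a5 and the macrophage and leukocyte ones Cd14 and S100a8. Primed vehicle libraries also differed among themselves. Sox10, of the melanocyte list, stood at 13.04, 10.17 and 11.60, though the mean of that list was 6.38, 6.31 and 6.14. The Schwann cell marker Cdh19 stood at 12.80, 9.42 and 10.84, beside Mcam at 13.45, 10.78 and 12.18. The part of this variation in the results was not tested.

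Leaving out each of the 6 libraries in turn, an alternative added after the data were seen, kept the call of Jam2 every time and that of Vcam1 in 5 of 6 fits. Alcam was called in 1 of the 6, without primed vehicle library 1, and Jam3 in 2, without primed vehicle library 1 or in vitro treated library 3. Icam1 gained a call without in vitro treated library 1 (-0.86 ± 0.19, adjusted p = 0.0362), and F11r without primed vehicle library 2 (-0.84 ± 0.18, adjusted p = 0.0256). In the fit of all 12, leaving out non-primed library 3 gave 2 calls, Alcam and Jam3 (14.4% of all genes), and leaving out in vivo treated library 1 gave 1, Jam2 (16.1%).

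**Figure D3:**
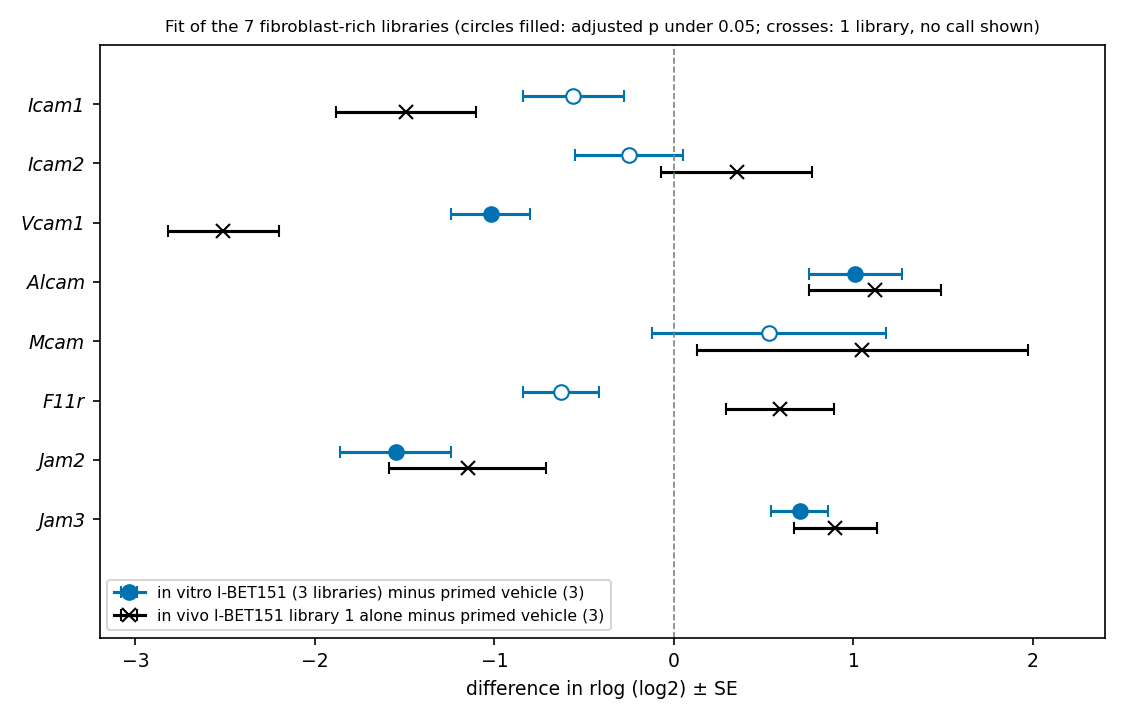
Difference in rlog (log2) ± SE from primed vehicle libraries in the fit of the 7 fibroblast-rich libraries, as circles for the 3 in vitro treated libraries, filled where the adjusted p is under 0.05, and as crosses for in vivo treated library 1 alone, whose SE is borrowed from the other groups. Vcam1 lies at -1.02 for the in vitro treated libraries and at -2.51 for the in vivo treated one, and F11r lies on opposite sides of 0.

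In vitro treated against in vivo treated libraries sets 24 h of the drug on cultured cells against dosing of the mice. Place, dose, timing and cell content differ together between these groups and cannot be told apart. limma called none of the 8 members and 0% of all genes, while 3 members (Icam1, Vcam1 and Mcam) and 5340 genes had an unadjusted p under 0.05. Icam1 differed by 3.91 ± 1.20 and Vcam1 by 3.80 ± 0.92 (adjusted p = 0.122 for each), and Mcam by -2.24 ± 0.88 (adjusted p = 0.128). The remaining differences were -1.30 ± 0.86 for Icam2, 0.72 ± 0.45 for Jam2, -0.36 ± 0.55 for F11r, 0.04 ± 0.25 for Jam3 and 0.02 ± 0.49 for Alcam. Icam1, Icam2 and Vcam1 did not overlap between the groups, nor did 22.4% of tested genes. With in vivo treated library 1 left out, so that fibroblast-rich libraries face melanocyte-rich ones, 4 members were called (49.1% of all genes). These were Icam1 at 5.40 ± 0.88, Vcam1 at 4.96 ± 0.67, Mcam at -3.10 ± 0.81 and Jam2 at 1.27 ± 0.32.

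In vivo treated against non-primed vehicle libraries asks how far primed paws under the drug resembled paws never primed. Again limma called no member and 0% of all genes, and 4 members (Icam2, Alcam, Jam2 and Jam3) and 3363 genes had an unadjusted p under 0.05. The differences were 1.48 ± 0.49 for Alcam (adjusted p = 0.222), 1.15 ± 0.45 for Jam2, 0.74 ± 0.25 for Jam3 and -2.06 ± 0.86 for Icam2 (adjusted p = 0.228). The other differences were 2.05 ± 1.20 for Icam1, 1.17 ± 0.92 for Vcam1, 0.47 ± 0.88 for Mcam and -0.98 ± 0.55 for F11r. For these members and for Icam2, the difference was smaller in size than the larger of the group SDs. Jam2 alone of the members did not overlap, as did not 17.3% of tested genes. Without non-primed library 3, 4 members were called (17.1% of all genes). In that fit Icam2 differed by -3.32 ± 0.39 (adjusted p = 0.00134), Alcam by 2.18 ± 0.27 (adjusted p = 0.00158), F11r by -1.64 ± 0.43 (adjusted p = 0.0305) and Jam3 by 1.05 ± 0.19 (adjusted p = 0.00712).

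The partners of these molecules were read from lists of known function. These lists were chosen with earlier results of these data known, so the counts below are no independent test against the shares of all genes. As the background of each count below, 28.9% of all tested genes were higher and 22.9% lower in primed vehicle against non-primed libraries. In the fit of the 6 libraries compared, 4562 of the 16459 tested genes were higher and 3489 lower. The shares were 17.9% higher and 21.8% lower in in vivo treated against primed vehicle libraries. In the fit of the 6 libraries compared there, 24% were called, 1675 genes higher and 2275 lower. In in vitro treated against primed vehicle libraries 4.51% were called, 289 genes higher and 454 lower. The fit of 6 had 13.4% higher and 16.9% lower. Of 8 tested integrin subunits that bind the members, 6 rose and 1 fell in primed vehicle against non-primed libraries, with a median difference of 3.87. Itgb7 was higher by 5.88 ± 0.88 (adjusted p = 0.00137), Itgam by 5.07 ± 0.95 (adjusted p = 0.00271), Itgb2 by 4.97 ± 1.08 (adjusted p = 0.00442) and Itgax by 4.15 ± 0.79 (adjusted p = 0.00285). Itgam, Itgax and Itgb2 are leukocyte genes, and Itgam is also in the macrophage and leukocyte marker list that rose in the same libraries. Itga4, the chain that binds Vcam1, fell by 3.92 ± 0.89 log2 units (adjusted p = 0.0054). Its level was 8.99, 8.48 and 9.23 in primed vehicle libraries, against 13.71, 12.70 and 12.05 in non-primed libraries, and the groups did not overlap. In vivo treated libraries 2 and 3 stood at 11.86 and 11.92 for Itga4 and library 1 at 7.99, so this integrin followed the melanocyte-rich libraries, the reverse of its ligand.

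In in vivo treated against primed vehicle libraries 5 of the 8 integrins fell and none rose, with Itgam at -4.79 ± 0.95 (adjusted p = 0.00629) and Itgal at -3.88 ± 0.73 (adjusted p = 0.00512), and in the fit of the 6 libraries compared 4 fell. Macrophage and leukocyte markers fell beside them, 7 of 8. In in vitro treated against primed vehicle libraries none of the 8 was called in the fit of all 12, and 4 fell in the fit of 6 libraries, namely Itgax, Itga4, Itga9 and Itgb7. Of these Itga4 differed by -1.23 ± 0.26 (adjusted p = 0.0137) and Itga9 by -0.96 ± 0.18 (adjusted p = 0.00937), while 2 of 8 macrophage and leukocyte markers fell in that fit.

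Selectins and the molecules that carry or build their ligands showed a like count. Of 8 tested, 7 rose in primed vehicle against non-primed libraries, Selp by 5.91 ± 1.03 (adjusted p = 0.00218), Cd34 by 4.93 ± 0.84 (adjusted p = 0.002), Fut4 by 4.87 ± 0.79 (adjusted p = 0.00171) and Sele by 4.34 ± 0.77 (adjusted p = 0.00229). In in vivo treated against primed vehicle libraries 6 of the 8 fell, or 4 in the fit of the 6 libraries compared, and in vitro treated cells showed 4 falls in the fit of 6 libraries and no call in the fit of all 12. E-selectin's gene, Sele, known as an inducible endothelial molecule, was at 4.43, 3.04 and 3.91 in in vitro treated, 4.35, 1.50 and 1.91 in in vivo treated, 5.77, 6.23 and 6.80 in primed vehicle and 1.61, 3.13 and 1.03 in non-primed libraries. Primed vehicle libraries were above all others for it, at a level where the rlog shrinks differences. Sele passed the filter only through that group, with a mean of 2.77 over the other 9 libraries.

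Of 18 other tested molecules of leukocyte adhesion and passage, 11 rose and 2 fell in primed vehicle against non-primed libraries (11 and none in the fit of the 6 libraries compared), among them Thy1, by 6.96 ± 1.77 (adjusted p = 0.00895), and Cdh11, the cadherin of synovial fibroblasts, by 6.25 ± 1.39 (adjusted p = 0.0049). Cd200 rose by 6.08 ± 1.20 (adjusted p = 0.00316) and Nectin1 by 5.76 ± 1.28 (adjusted p = 0.005). Thy1 is also in the fibroblast marker list. In in vivo treated against primed vehicle libraries 9 fell and 1 rose, and in the fit of the 6 libraries compared 5 fell and 1 rose. In in vitro treated against primed vehicle libraries 3 fell in the fit of all 12, where no member was called. The immune checkpoint ligand Cd274 differed by -2.96 ± 0.67 (adjusted p = 0.0394), Cx3cl1 by -2.19 ± 0.48 (adjusted p = 0.036) and the nectin-like Pvr by -1.44 ± 0.34 (adjusted p = 0.0437). In the fit of 6 libraries 6 of the 18 fell and 2 rose.

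Cx3cl1 encodes fractalkine, a chemokine on a membrane stalk that holds leukocytes directly. Its level was 10.79, 11.05 and 10.65 in in vitro treated libraries, 10.09, 9.31 and 9.12 in in vivo treated libraries, 12.33, 13.01 and 13.73 in primed vehicle libraries and 7.21, 7.94 and 9.11 in non-primed libraries. Every treated library was below every primed vehicle library, in vivo treated library 1 included.

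**Figure D4:**
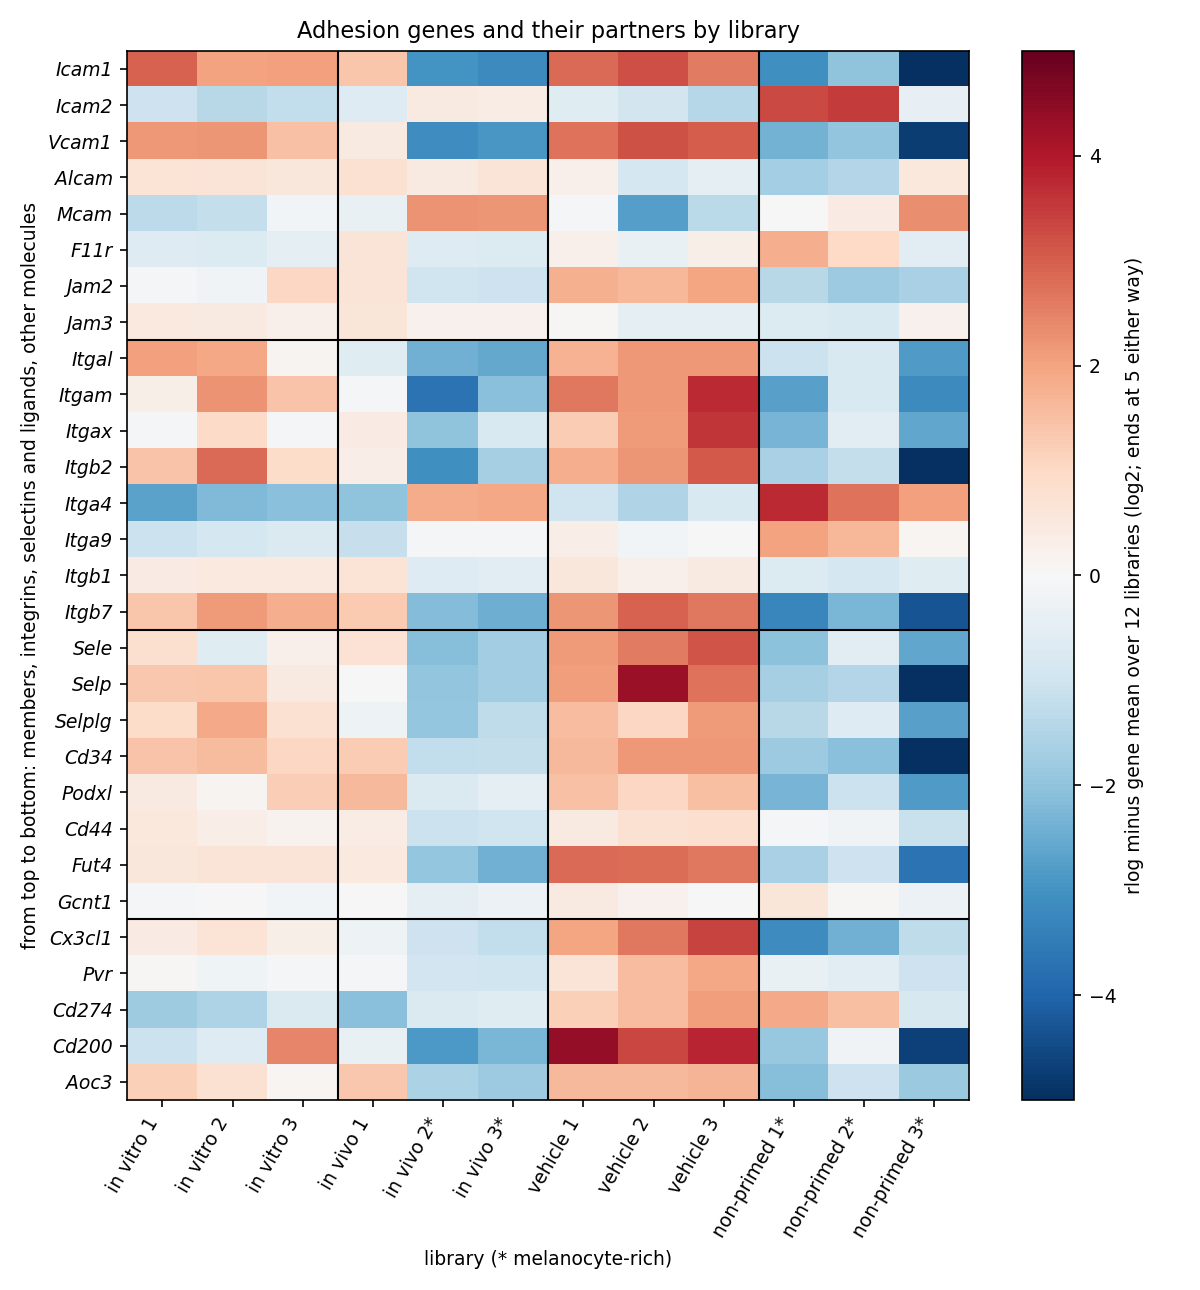
Level of the 8 members, 8 integrin subunits, 8 selectin-related genes and 5 other adhesion genes in each library, as rlog minus the gene's mean over the 12 libraries (log2, colour ends at 5 either way), with melanocyte-rich libraries starred. Most rows are above their mean in primed vehicle and below it in non-primed libraries, with Itga4, Icam2 and Mcam among those the other way.

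Cytokines that induce Icam1 and Vcam1, their receptors and the relays behind them were tested as 25 genes. In primed vehicle against non-primed libraries 16 rose and 2 fell, led by Il1b at 8.93 ± 0.72 (adjusted p = 0.000464) and Il1a at 8.75 ± 1.24 (adjusted p = 0.00119). Il1b passed the filter only through the primed vehicle group, so in each comparison with that group it had to differ to be tested. In in vivo treated against primed vehicle libraries 15 fell and 2 rose (11 and 1 in the fit of the 6 libraries compared), with Il1a at -9.60 ± 1.24 (adjusted p = 0.0016) and Tnf at -3.94 ± 0.83 (adjusted p = 0.00797). In in vitro treated against primed vehicle libraries Il1b and Il1a fell, with differences of -7.97 ± 0.72 (adjusted p = 0.0038) and -7.39 ± 1.24 (adjusted p = 0.0168), and Brd2, the gene of a drug target, rose by 2.01 ± 0.38 (adjusted p = 0.0249). In the fit of 6 libraries 9 fell and 4 rose.

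The level of Il1b was 1.63, 2.92 and 3.11 in in vitro treated, 1.82, 1.91 and 1.23 in in vivo treated, 8.70, 11.07 and 11.80 in primed vehicle and 1.61, 2.12 and 1.05 in non-primed libraries. Primed vehicle libraries were above all others, and Il1b passed the filter only through them, with a mean of 1.93 over the other 9. The level of Il1a was 2.24, 5.35 and 7.48 in in vitro treated, 2.77, 2.71 and 2.95 in in vivo treated, 11.86, 12.36 and 13.02 in primed vehicle and 3.34, 5.86 and 1.78 in non-primed libraries. Here too primed vehicle libraries were above all others, and the in vitro treated libraries were spread widely.

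Proteins that tie these molecules to the cytoskeleton and to junctions were called in both directions. Of 15 tested, 3 rose and 6 fell in primed vehicle against non-primed libraries, among them Actn1, an actin crosslinker, at 2.48 ± 0.46 (adjusted p = 0.00266), and moesin's gene Msn at 1.34 ± 0.29 (adjusted p = 0.0042). Filip1, which regulates filamin, differed by -3.55 ± 1.00 (adjusted p = 0.0143). In vivo treated against primed vehicle libraries had 3 higher and 2 lower calls, or 2 higher and none lower in the fit of the 6 libraries compared, and in vitro treated against primed vehicle libraries had none in the fit of all 12 and 1 in each direction in the fit of 6.

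Of 7 tested proteases and inhibitors that govern the shedding of adhesion molecules, 2 rose in primed vehicle against non-primed libraries (4 in the fit of the 6 libraries compared), Mmp9 by 5.70 ± 1.13 (adjusted p = 0.00317) and Adam8 by 2.43 ± 0.51 (adjusted p = 0.00385). Both fell in in vivo treated against primed vehicle libraries, Mmp9 by 6.73 ± 1.13 log2 units (adjusted p = 0.00341) and Adam8 by 1.48 ± 0.51 (adjusted p = 0.0412). Adam10 and Adam17, the sheddases of several adhesion molecules, rose in the same comparison, by 0.92 ± 0.26 (adjusted p = 0.0222) and 0.76 ± 0.21 (adjusted p = 0.0207). In in vitro treated against primed vehicle libraries Adam10 rose by 0.67 ± 0.17 (adjusted p = 0.0251) and Adam17 by 0.59 ± 0.15 (adjusted p = 0.0279) in the fit of 6 libraries and neither in the fit of all 12.

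The members' profiles over the 12 libraries were compared by the root mean square difference between profiles centred on their means, in log2 units. Among the members, Alcam and Jam3 (0.44) and Icam1 and Vcam1 (0.56) were the nearest pairs, and Icam1 and Mcam the farthest (4.41). For scale, a flat profile would lie 3.04 from Icam1, 2.72 from Vcam1, 0.85 from Alcam and 0.45 from Jam3, so Alcam lies about as far from Jam3 as a flat line does. The nearest tested genes were sought with predicted genes (Gm and Rik names) and the lower rows of a shared symbol left out. Bmper (0.39), Irak3 (0.41) and Dnm3os (0.41) were nearest to Icam1, and Islr (0.40), Fas (0.40) and Col24a1 (0.42) to Vcam1. Fas is a death receptor, and Irak3 a brake on interleukin-1 and Toll-like receptor signalling.

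Nearest to Mcam were Pcdh17 (0.41), Rims1 (0.52) and Mef2c (0.52), where a flat profile lay at 1.53. Wfdc1 (0.39), Fhad1 (0.39) and Nr4a3 (0.42) were nearest to Icam2, with a flat profile at 1.63. Lims2 (0.28), Zc2hc1c (0.31) and Gsto1 (0.32) lay nearest to Jam2, against 1.33 for a flat profile. For the flatter members the nearest genes were Mex3b (0.24), Pgm2l1 (0.25) and Zfp784 (0.26) for Alcam, Cd109 (0.33), Fez1 (0.33) and Dusp4 (0.36) for F11r, and Shisa4 (0.11), Pdp1 (0.12) and Ski (0.12) for Jam3. These points share the split into library classes, so the likeness describes this set of libraries.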

How the data were processed

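RNA was sequenced from 12 cultures in 4 groups of 3, taken from the titles in the labels. Libraries were made from polyadenylated RNA with a stranded kit, per the labels' protocols. The submitters' processing notes name DESeq2 1.24.0, Subread 1.6.1 with featureCounts, STAR 2.6.1c and cutadapt 1.18, and the build GRCm38. The annotation used, how strand was counted and the blindness of the transformation were not given in the sources used here, nor were other settings. The deposited table holds the authors' rlog values, a log2 scale from -2.24 to 20.6 in which 19136 genes are listed at 0 throughout. With no counts in it, the depth of a library is unknown and counting error could not be given. The rlog shrinks differences of weak genes.

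All 55413 identifiers matched a symbol, 109 of them sharing one with another identifier. Coordinates and exon lengths come from GENCODE M21. limma 3.58.1 in R 4.3.3 fitted 1 mean per group to 16459 genes with a mean of at least 3 (lmFit, eBayes with trend, two-sided, Benjamini-Hochberg adjustment). With 3 libraries a side an exact permutation test has 0.1 as its smallest p, so none was run. The members and gene lists were chosen with earlier results of these data known. All members were named whatever their result, with up to 4 called genes per adhesion list by size and the 3 genes of nearest profile, except that a few list genes are not reported here by name. Il1a, Il1b and Sele levels, marker values within a list and the Itga4 levels in treated libraries were picked after their values were seen. The fit was checked on simulated data with independent noise and the same spread per gene in every group. Groups of unequal spread and genes that move together were not covered by that check. Alternatives were other filters, moderation, centring, quantile normalization, array weights, a replicate block, only the libraries compared, libraries alike in melanocyte markers, and each library left out.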

Additional observations from a re-analysis of the deposited data

How the results depend on the processing

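Of 387 member differences under settings other than leaving out a library, 334 kept their direction and side of the threshold, 36 gained a call, 5 lost one and 12 turned sign. Array weights moved the members called to 7 in primed against non-primed vehicle, 8 in in vivo treated against primed vehicle, 4 in in vitro treated against primed vehicle, and 5 each in in vitro against in vivo treated and in vivo treated against non-primed, while the genes called of 16459 moved to 10191, 12582, 6326, 12243 and 6563 in these 5 comparisons. A minimum mean of 5 removed Icam2 and left 3 members called in primed against non-primed. Mcam gained a call there with median-centred libraries (adjusted p = 0.0439), quantile normalization (0.0422), array weights (0.0261) and the replicate block (0.0482). Only the libraries compared gave 2 for in vivo and 4 for in vitro treated against primed vehicle, and the libraries alike in melanocyte markers 4 for in vitro. With a library left out, the counts ran from 4 to 6 in primed against non-primed, 2 to 7 for in vivo and 0 to 2 for in vitro treated against primed vehicle (2, 3 or 4 within the 6 libraries), and 0 to 4 in each of the other 2 comparisons. All genes called then ran from 6706 to 9761, 2435 to 9962, 12 to 2644 (2520 to 4612 within the 6 libraries), 0 to 8085 and 0 to 2812.

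Signs turned for uncalled differences. In primed against non-primed, Jam3 was -0.04 with median-centred libraries. In in vivo treated against primed vehicle, F11r was 0.36 with quantile normalization and 0.59 in libraries alike in melanocyte markers. In in vitro against in vivo treated, median-centred libraries gave -0.07 for Alcam and -0.05 for Jam3, quantile normalization -0.01 for Alcam, array weights 0.04 for F11r, and the alike libraries -0.11 for Alcam, -0.21 for Jam3 and -0.40 for Jam2. In in vivo treated against non-primed, array weights gave -0.24 for Icam1 and -0.60 for Vcam1. With a library left out, Jam3 in primed against non-primed ran from -0.08 to 0.40, Mcam in in vitro treated against primed vehicle from -0.15 to 1.18, and in in vitro against in vivo treated Alcam ran from -0.05 to 0.09, Jam3 from -0.02 to 0.17 and F11r from -0.58 to 0.08. The cause was not tested.

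Quantile normalization moved the median of all genes to -0.24 in primed against non-primed (3858 higher, 5680 lower) and to 0.19 in in vivo treated against primed vehicle (4595 higher, 2967 lower), and median centring moved it to -0.08 (4209 higher, 4434 lower) and 0.13 (4029 higher, 2964 lower). Members called in these comparisons kept their direction. Libraries of the same number correlated at -0.43 to 0.37 in their deviations from the group means. With 3 libraries a group these deviations depend on each other, so pairing by number is neither shown nor excluded. A replicate block gave 5, 4, 0, 0 and 0 members called in the 5 comparisons, in the order of the report, and 173 genes of the whole table against 743 in in vitro treated against primed vehicle. Unknown depth leaves the error of weak genes such as Icam2 unmeasured.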
